A study of Oncorhynchus mykiss with 9 samples.

Results

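Among the small RNAs listed for rainbow trout liver, 20 distinct sequences are only 18 or 19 nt long and carry either a high-numbered miRNA name or a name given to a predicted miRNA. They were chosen by 3 conditions, a length of at most 19 nt, an average level over the 9 libraries of 1 TPM or more, and a name that marks a predicted miRNA or has a miRNA number of 1000 or more (miR-1582 apart). The file lists 23 entries with these sequences, and each sequence was counted once. They are 20 of the 399 distinct sequences that reached a mean of 1 TPM and of 1150 distinct sequences in all. Of the 20, 15 carry a known name and 5 were predicted from the reads. The predicted entries are called A to E here, in the order of their mean level. A further 34 short sequences with such names stayed under 1 TPM and were not tested. TPM are here the reads of an entry scaled to the reads counted in the listed entries of its library, not divided by length. Length and mean level chose these entries, so both are descriptions.

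The livers came from wild-type rainbow trout (Oncorhynchus mykiss). Acute hypoxia for 12 h (Ts12Ls), moderate hypoxia for 12 h (Tm12Ls) and control (CLs) have 3 libraries each, and the labels give no oxygen level for any group. Nothing in the labels tells whether the libraries of a group stem from different fish, so a p-value here reflects the spread from library to library. In whole liver, fewer cells of a type and less RNA per cell cannot be told apart.

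A miRNA is cut from a hairpin precursor and binds its targets mainly through the seed, a short stretch near its 5′ end. Small-RNA libraries also hold pieces of tRNA, rRNA and other structured RNA that fall into the same size range. Mature tRNAs carry the bases CCA at their 3′ end, which an enzyme adds after transcription, and one class of tRNA pieces runs from the T loop to that end. Some names in human miRNA catalogues, miR-1260 and miR-4454 among them, were later traced to pieces of tRNA. A tRNA or genome sequence of trout was not used here, so the origin of the short entries was not tested.

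Of the 20 sequences, 13 end in CCA, all of them 18 nt long. They are shown because this shared end is what most of the short entries have in common, and the capitals mark it.

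miR-2478-z: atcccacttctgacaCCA
miR-7977-z: ttcccggccaatgcaCCA
miR-1260-z: atcccaccgctgtcaCCA
miR-4454-z: atccgggtcacggcaCCA
predicted entry A: atcacgtcggggtcaCCA
predicted entry B: tcccgggtttcggcaCCA
miR-2779-z: atccggctcgaaggaCCA
miR-9993-y: atctcggtaggacctCCA
miR-1386-z: ctcctggctagctcgCCA
predicted entry D: tgcccgcattctccaCCA
miR-9995-y: atctcggtagaacctCCA
miR-10926-z: atctcagcggagcctCCA
miR-4286-z: accccactcctggtaCCA

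A pair of 19 nt entries carries CCA followed by 2 further bases, both A, and the capitals mark the CCA again.

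miR-7550-x: tccggctcgaaggaCCAaa
miR-9226-z: tccctgttcgggcgCCAaa

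The last 5 entries have no CCA at or next to the 3′ end, and 4 of them are shown because they resemble a known miRNA or stand out in the comparisons. The capitals in these and in their known relatives mark the seed, bases 2 to 8.

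miR-10014-x: tGGAGTGTgacaatggtaa
miR-122-x: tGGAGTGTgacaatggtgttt
miR-5991-z: tGAGGTAGtaggttgtgtt
miR-98-x: tGAGGTAGtaggttgtatt
predicted entry C: aATCAGTGatgggataact
miR-5119-z: tCACATCCtggggctgga

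The CCA end went with length and level in the file. Of the 14 distinct 18 nt sequences that averaged 1 TPM or more, 13 (92.9%) end in CCA, against 5 of 26 sequences of that length under 1 TPM (19.2%). Among sequences of 20 nt or longer at that level, 8 end in CCA (2.13%), and none of the 9 sequences of 19 nt does. Of the 13 short entries, 9 end in ACCA, 3 in TCCA and 1 in GCCA. Their 5′ ends were also alike, since 8 of the 13 begin with ATC and 9 with A. The median share of G and C was 61.1% over the 20 short entries, against 45.5% for the longer sequences of at least 1 TPM. The shortest entries in the file have 18 nt and the longest 26 nt. Whether shorter reads were left out before deposit is not stated in the labels or headers.

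**Figure D1:**
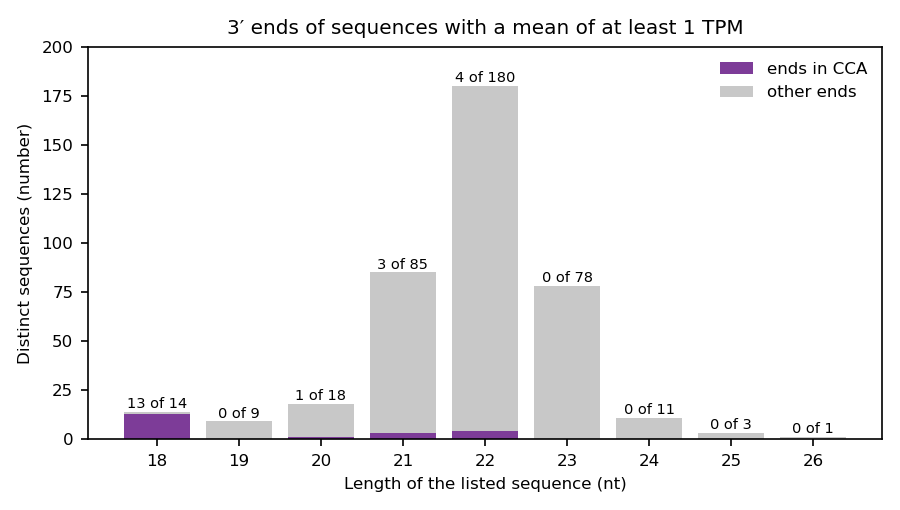
Number of distinct sequences that averaged 1 TPM or more over 9 libraries (y axis) by length in nt (x axis), with those that end in CCA in purple and others in grey. CCA ends fill most of the 18 nt bar (13 of 14); of the longer classes those of 20, 21 and 22 nt hold 1, 3 and 4, and the others hold none.

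Several of the short entries overlapped longer or near-identical entries. The whole of miR-2478-z lies inside the 21 nt miR-3968-z, which has the bases cga before it and the same CCA end. Likewise 15 bases of miR-10926-z lie inside miR-5100-z, preceded by tcga. In tRNAs of many species the T loop reads TTCGA or TTCAA. miR-9226-z shares 17 bases with the 20 nt miR-9226-x, which starts 3 bases earlier and stops at the CCA, and their sequences are set out below to show the shifted ends.

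miR-9226-x: aggtccctgttcgggcgCCA
miR-3968-z: cgaatcccacttctgacaCCA

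miR-2779-z and miR-7550-x share 17 bases with a shift of 1 base. miR-7977-z shares 17 bases with miR-7911-x, which had a mean of 0.187 TPM. Positions are counted from 1 at the 5′ end of the short entry in what follows. miR-9993-y and miR-9995-y differ by G11A and have the same seed. Apart from that pair, the 3 entries of 18 nt that differ from a short entry of that length at 1 position were far below it: miR-3963-z (C17T against miR-2478-z, 0.217 TPM), miR-11202-x (A1T against miR-2779-z, 0.200 TPM) and miR-7975-z (G5T against miR-4454-z, 0.0718 TPM). Seeds were otherwise mostly their own: apart from miR-9993-y with miR-9995-y, miR-10014-x with miR-122-x and miR-5991-z with the let-7 group and miR-6134-z, no short entry shared its seed with another distinct sequence of at least 1 TPM.

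The same sequence did not always have the same value. The sequence of miR-2779-z is also listed as miR-7550-z, and the values under the miR-2779-z name were 1.35 to 1.97 times those under the other name in the 9 libraries. Over the file, 183 sequences are listed more than once, 160 of them with equal and 23 with unequal values. The sequences of predicted entries B and D are each listed again, with equal values, under the next number. Numbers of predicted entries also changed between the deposited tables, and the same sequence can carry different numbers. The predicted entry that the title of the series names is a 20 nt entry of the table of acute hypoxia with control. It shares its number with predicted entry C of the joined tables, but neither its full name nor its sequence is among them.

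The listed entries held 8443326 to 16515713 reads per library, recovered from the step between low values, and 3 reads correspond to 0.182 to 0.355 TPM. The TPM of these entries summed to 1004247 to 1005610 per library, repeated sequences included. The reads are thus about those counted in the listed entries, not the sequencing depth. Hepatocyte miR-122 entries summed to 408122 to 462886 TPM under acute hypoxia, 505996 to 526979 TPM under moderate hypoxia and 307584 to 501260 TPM in control, so the defining miRNA of hepatocytes was high in every library. Moderate hypoxia libraries 1 and 2 stand apart from the rest: 35 entries under names of an imprinted miRNA cluster of placental mammals (27 of 42 names found) summed to 252 and 307 TPM in them, against 3.88 TPM in moderate hypoxia library 3 and 3.02 to 5.24 TPM in the 6 other libraries. Calls among the short entries are therefore also given without these libraries. Over all 481 entries tested, the median change was -0.22 (log2) in moderate hypoxia against control and 0.32 in acute against moderate hypoxia, against -0.0017 and 0.016 when libraries were scaled by a trimmed mean of M values.

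The entries that end in CCA were high under acute hypoxia and low under moderate hypoxia. Their 13 values summed to 962.5, 1309 and 1773 TPM in the libraries of acute hypoxia, to 619, 275 and 462 TPM in those of moderate hypoxia and to 708, 757 and 785 TPM in those of control. The 3 groups did not overlap in this sum, which averaged 1348 ± 407 TPM under acute hypoxia, 452 ± 172 TPM under moderate hypoxia and 750 ± 39.0 TPM in control (SD, n = 3 each). The sum was taken on the deposited scale and not under other scalings. miR-2478-z held 43.7%, 61.0% and 43.4% of it on average in these groups. The 5 entries without a CCA end summed to 493.5 ± 125.9, 536 ± 183 and 507 ± 118 TPM in acute hypoxia, moderate hypoxia and control, and their libraries overlapped between groups. miR-10014-x made up most of this sum in every library, so the sum mainly describes that entry and not the 5 as a class. Within it, predicted entry C fell and miR-5119-z rose in moderate hypoxia against control (log2 changes of -1.66 and 2.51).

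miR-2478-z, the most abundant of the 13 short entries that end in CCA, had 451.1, 521 and 788 TPM in acute hypoxia, 348, 182 and 280.2 TPM in moderate hypoxia and 287, 343 and 348 TPM in control. All acute hypoxia libraries were above all others, while moderate hypoxia and control overlapped. miR-7977-z had 140.3, 252 and 279 TPM in acute hypoxia, 50.5, 19.3 and 34.5 TPM in moderate hypoxia and 94.1, 121 and 94.7 TPM in control. Its 3 groups did not overlap, with moderate hypoxia lowest and acute hypoxia highest. miR-1260-z had 86.5, 124.2 and 159 TPM in acute hypoxia, 54.1, 18.8 and 38.0 TPM in moderate hypoxia and 39.5, 55.6 and 53.1 TPM in control. It resembled miR-2478-z in that acute hypoxia lay above both other groups and these overlapped. miR-4454-z differed from these in its order, with 60.5, 68.0 and 93.5 TPM in acute hypoxia, 44.0, 11.2 and 27.1 TPM in moderate hypoxia and 81.6, 68.8 and 135 TPM in control. Here acute hypoxia and control overlapped, and moderate hypoxia lay below both.

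The 2 most abundant predicted sequences that end in CCA followed these patterns. Predicted entry B had 58.4, 93.4 and 106 TPM in acute hypoxia, 14.1, 6.32 and 11.3 TPM in moderate hypoxia and 41.8, 38.8 and 30.6 TPM in control, 3 groups without overlap. Predicted entry A had 57.9, 96.5 and 130.1 TPM in acute hypoxia, 49.8, 14.2 and 32.9 TPM in moderate hypoxia and 48.4, 47.8 and 38.5 TPM in control. Its acute hypoxia libraries were the highest, and moderate hypoxia overlapped control through library 1. miR-2779-z had 50.0, 63.7 and 90.5 TPM in acute hypoxia, 25.4, 13.8 and 18.6 TPM in moderate hypoxia and 52.3, 40.2 and 41.9 TPM in control, and its acute hypoxia and control libraries overlapped. Under the name miR-7550-z the same sequence had 36.0, 45.6 and 67.1 TPM in acute hypoxia and 32.6, 25.1 and 29.1 TPM in control, without overlap. The overlap thus depends on which name is read. miR-1386-z had 16.6, 18 and 23.9 TPM in acute hypoxia, 3.51, 1.14 and 2.42 TPM in moderate hypoxia and 12.6, 10.3 and 8.59 TPM in control, without overlap between any groups. The other 5 averaged 1.14 to 36.1 TPM in acute hypoxia, 0.409 to 10.02 TPM in moderate hypoxia and 1.501 to 22.9 TPM in control. The lowest of them, miR-4286-z, rests on 34, 18 and 45 reads over the acute hypoxia, moderate hypoxia and control libraries.

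**Figure D2:**
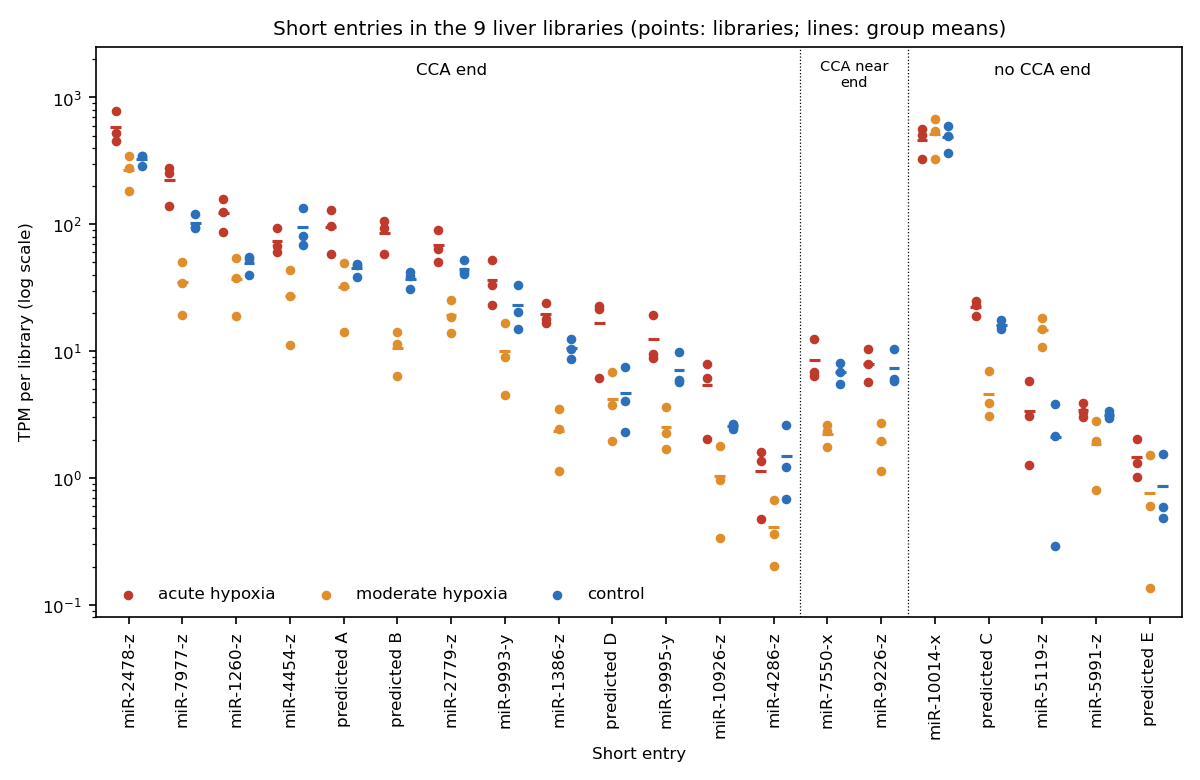
TPM of the 20 short entries in each of 9 libraries (y axis, log scale), by entry (x axis), with acute hypoxia in red, moderate hypoxia in orange and control in blue, points for libraries and lines for group means of 3. Most entries with a CCA end have their lowest points under moderate hypoxia, such as miR-7977-z at 19.3 to 50.5 TPM, while miR-10014-x overlaps between all groups.

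Acute against moderate hypoxia gave the most calls. Of the 20 short entries, 15 were higher and 1 lower under acute hypoxia at an adjusted p under 0.05 (limma, Benjamini-Hochberg over 481 entries), against 22.9% higher and 7.69% lower, 30.6% in all, among all entries tested. The balance over all entries depended on the scaling, with 110 higher and 37 lower as deposited, 58 and 70 with a trimmed mean of M values, 54 and 69 with the median of ratios, 58 and 54 after quantile normalization, and 78 and 50 when rescaled without miR-122-x. The short entries had 10 to 13 higher and 1 lower under these 4 scalings. Groups did not overlap for 16 of 20, against 52.8% of all entries. The entries that end in CCA made up 12 of the 15 calls, 12 of 13, with a median log2 change of 1.77 against 0.32 over all 399 distinct sequences tested. By fold of the group means, predicted entry B was 8.12 times (log2 change 2.93 ± 0.32 SE, adjusted p = 0.000167), miR-1386-z 8.28 times (2.66 ± 0.30, adjusted p = 0.000167) and miR-7977-z 6.44 times (2.69 ± 0.36, adjusted p = 0.000444) as high in acute as in moderate hypoxia. miR-1260-z rose by 1.79 ± 0.36 (adjusted p = 0.00530) and miR-2779-z by 1.77 ± 0.28 (adjusted p = 0.00161). miR-2478-z, the most abundant of them, rose least among the CCA-ended calls, by 1.12 ± 0.28 (adjusted p = 0.0148).

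Among the rest of the CCA-ended entries, miR-9995-y rose by 1.90 and miR-9993-y by 1.83 (log2; adjusted p = 0.00292 and 0.0132), the pair that differs by G11A. Predicted entry D rose by 1.70 (adjusted p = 0.0308), although its acute library 1 (6.165 TPM) lay below moderate library 1 (6.83 TPM). Predicted entry A rose by 1.62, miR-10926-z by 1.57 and miR-4454-z by 1.57 (adjusted p = 0.0163, 0.0150 and 0.0213). miR-4286-z, at 1.35, 0.474 and 1.59 TPM in acute and 0.3595, 0.202 and 0.666 TPM in moderate hypoxia, did not pass (0.57, adjusted p = 0.188). A share of these calls rested on the scaling or on single libraries. The calls of miR-2478-z (0.57 to 0.90, adjusted p = 0.0566 to 0.172) and predicted entry D (1.35 to 1.51, adjusted p = 0.0566 to 0.0716) ended under all 4 other scalings tried. That of miR-4454-z ended under 3 of the 4 (1.06 to 1.18, adjusted p = 0.0664 to 0.117), and those of miR-9993-y (1.45, adjusted p = 0.0515) and predicted entry A (1.10, adjusted p = 0.0901) under quantile normalization. Without acute hypoxia library 3, calls among the short entries numbered 10 in place of 16, and those of miR-2478-z (0.89, adjusted p = 0.0649), miR-9993-y (1.53, 0.0629), miR-4454-z (1.39, 0.0824), predicted entry A (1.35, 0.0711), miR-10926-z (1.26, 0.0673) and predicted entry D (1.44, 0.111) ended, with log2 changes and adjusted p in brackets. Without moderate hypoxia library 2, miR-2478-z, miR-4454-z, predicted entry A, miR-10926-z and predicted entry D had adjusted p of 0.0618, 0.0635, 0.0519, 0.0559 and 0.107. Without acute hypoxia library 2, miR-4454-z, predicted entry A, miR-10926-z and predicted entry D had 0.0590, 0.0590, 0.0626 and 0.118. With moderate hypoxia library 3 as the sole library of its group, the spread comes from the acute hypoxia and control libraries alone, and that library is assumed to vary like them. On that assumption 7 entries passed, all higher in acute hypoxia: miR-1260-z, miR-1386-z, miR-2779-z, miR-7977-z, miR-9995-y, predicted entry B and predicted entry C. All 13 CCA-ended entries then still had a positive change, with a median of 1.71.

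Moderate hypoxia against control moved the other way. Of the 20 short entries, 9 were lower and 1 higher under moderate hypoxia, against 17.7% lower and 7.9% higher, 25.6% in all, among the 481 entries. Over all entries 38 were higher and 85 lower as deposited, against 53 and 50 with a trimmed mean of M values, 54 and 48 with the median of ratios, 40 and 40 after quantile normalization, and 53 and 53 when rescaled without miR-122-x, while the short entries had 1 higher and 6 to 9 lower under these 4. Groups did not overlap for 13 of 20, against 43.2% of all entries. All 13 CCA-ended entries had a negative change, with a median of -1.20 against -0.22 over the 399 distinct sequences, and 6 of them passed. miR-4454-z fell by 1.89 ± 0.43 (SE; adjusted p = 0.0122), miR-1386-z by 1.83 ± 0.30 (adjusted p = 0.00243) and predicted entry B by 1.77 ± 0.32 (adjusted p = 0.00406) on the log2 scale. miR-7977-z fell by 1.63 ± 0.36 (adjusted p = 0.00977), miR-9995-y by 1.22 ± 0.34 (adjusted p = 0.0256) and miR-2779-z by 1.21 ± 0.28 (adjusted p = 0.0142). The most abundant of the 13, miR-2478-z, had a change of -0.31 and did not pass (adjusted p = 0.462), nor did miR-1260-z (-0.52, adjusted p = 0.330) or predicted entry A (-0.62, adjusted p = 0.301).

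Of the 10 calls against control, those of miR-2779-z (-0.86), miR-4454-z (-1.47) and miR-7977-z (-1.17) ended under quantile normalization (adjusted p = 0.0637, 0.0531 and 0.0537), and that of miR-9995-y under the median of ratios (-0.99, adjusted p = 0.0561). Of single libraries, miR-2779-z ended without moderate hypoxia library 2 (-1.0, adjusted p = 0.0563), and miR-9995-y ended without moderate hypoxia library 2 (-1.04, 0.0867), moderate hypoxia library 3 (-1.18, 0.0608) or control library 1 (-1.0, 0.0805). With moderate hypoxia library 3 as the sole library of its group, and the spread again taken from the other groups, predicted entry C was at -1.81 (adjusted p = 0.0457). The 9 other calls ended there with an adjusted p of 0.0630 to 0.229, among them miR-1386-z with -1.73 and miR-5119-z with 2.57. The 13 CCA-ended entries all kept a negative change there, with a median of -1.18, against -1.20 with all libraries.

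Acute hypoxia against control gave no call among the short entries (0.0% of the 481 entries by limma). At an unadjusted p under 0.05 there were 7 of 20, all of them CCA-ended, and 47 of 481. Groups did not overlap for 7 of 20, against 11.2% of all entries. Changes were positive for 11 of the 13 CCA-ended entries, with a median of 0.81 against 0.091 over all distinct sequences. The largest were those of predicted entry D (1.57 ± 0.52 SE), miR-1260-z (1.27 ± 0.36), predicted entry B (1.16 ± 0.32) and miR-7977-z (1.06 ± 0.36), and each had an adjusted p of 0.331. miR-4454-z (-0.32 ± 0.43) and miR-4286-z (-0.19 ± 0.33) had negative changes. The 3 comparisons share libraries in pairs, so their changes are not independent of one another.

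**Figure D3:**
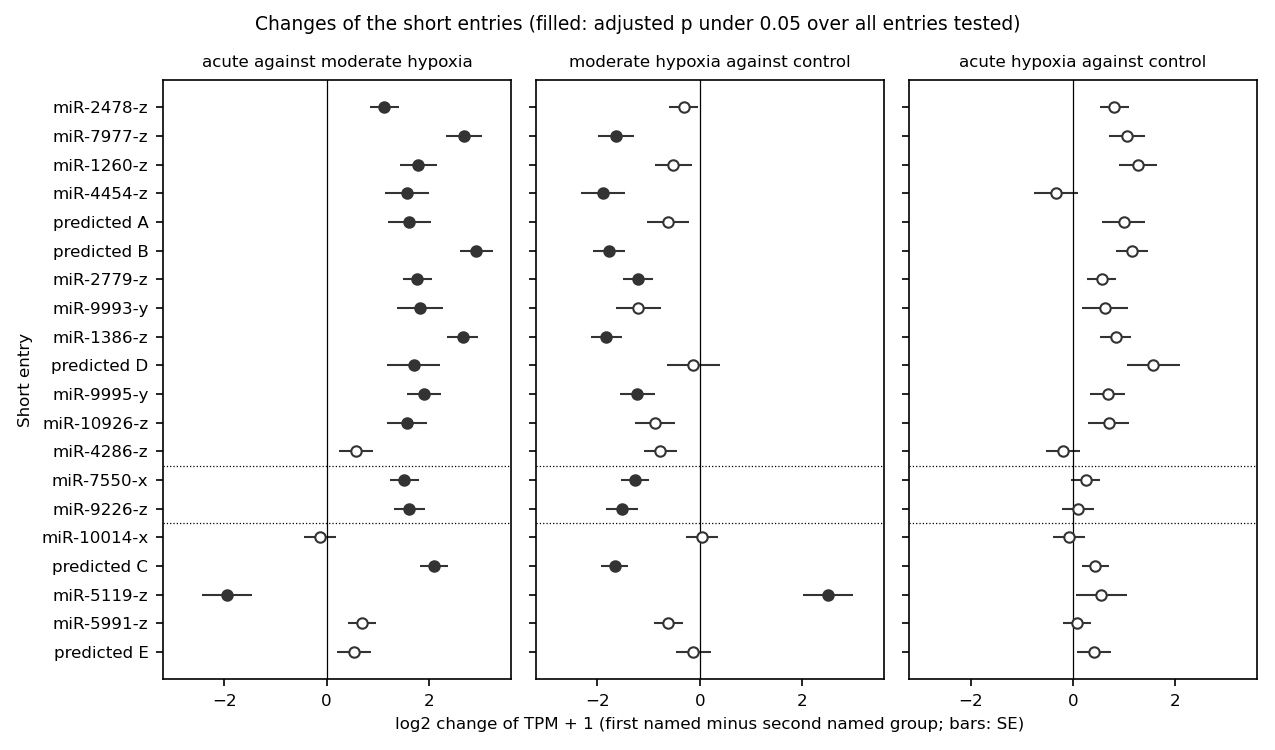
Log2 change of TPM + 1 with its SE (x axis) of each of 20 short entries (y axis) in 3 comparisons, filled where the adjusted p was under 0.05. The 13 CCA-ended entries in the upper block lie right of 0 in acute against moderate hypoxia and left of 0 in moderate hypoxia against control, and no point is filled in acute hypoxia against control.

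The authors' deposited table of acute with moderate hypoxia lists 13 of the 20 short entries as higher and 1 as lower at a false discovery rate under 0.05, and 70 higher (4.95%) and 95 lower (6.72%), 11.7% in all, of its 1413 entries. The authors' deposited table of moderate hypoxia with control lists 1 as higher and 7 as lower, and 113 higher (8.0%) and 38 lower (2.69%), 10.7% in all, of its 1413 entries, so there the balance over all entries is opposite to that of the short entries. Of these 1413 entries only 481 averaged 1 TPM or more, as all short entries did. The shares over all entries are therefore not from a like set. The authors' deposited table of acute hypoxia with control holds 16 of the 20 sequences and calls none of them and none of its 1139 entries (0.0%), with a smallest false discovery rate of 0.243 among them.

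Most CCA-ended entries moved with one another across libraries, but not in fixed proportion. The median Pearson correlation of their log2 values over the 9 libraries was 0.873 over 78 pairs, against 0.086 over all pairs of the 399 distinct sequences. Single pairs of the 13 ranged from -0.041 to 0.991. Each value comes from the same 9 libraries and carries the differences between the groups, so these are descriptions. Moderate hypoxia library 2 had the lowest value of all libraries for 13 of 13 CCA-ended entries (20.3% of all distinct sequences), and acute hypoxia library 3 the highest for 10 of 13 (10.3% of all). Moderate hypoxia library 3 lay between libraries 1 and 2 for 12 of the 13 (55.9% of all distinct sequences). The entries most like miR-2478-z over the 9 libraries were miR-1260-z (r = 0.987), predicted entry A (0.957) and miR-10926-z (0.917). Those most like miR-7977-z were predicted entry B (r = 0.991), miR-1386-z (0.975) and miR-2779-z (0.973).

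The make-up of the CCA-ended sum differed between groups. miR-2478-z made up 43.7% of it on average in acute hypoxia, 61.0% in moderate hypoxia and 43.4% in control. miR-7977-z made up 16.5% in acute hypoxia, 7.55% in moderate hypoxia and 13.8% in control, and predicted entry B 6.40%, 2.34% and 4.98%. miR-2478-z was accordingly 2.70 ± 0.58 times as high as miR-7977-z within acute hypoxia libraries, 8.15 ± 1.27 times within moderate hypoxia libraries and 3.19 ± 0.43 times within control libraries (SD, n = 3 each). miR-4454-z took 5.58% in acute hypoxia, 5.67% in moderate hypoxia and 12.6% in control. These shares were compared after their values were seen and have no test.

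**Figure D4:**
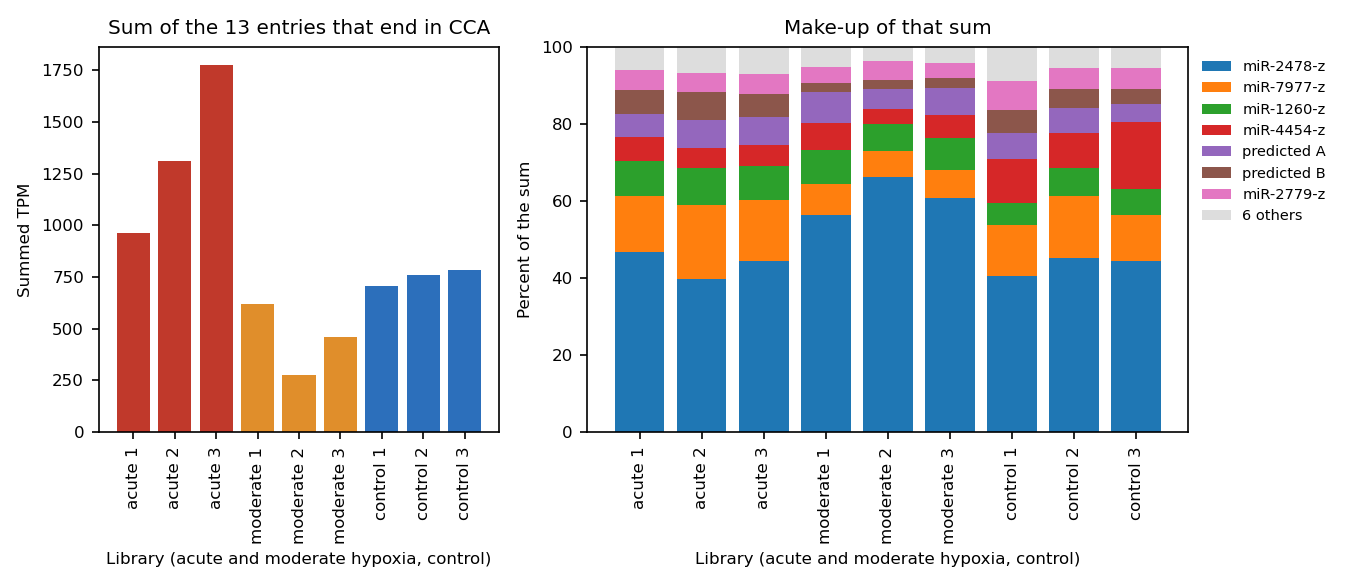
Summed TPM of the 13 CCA-ended entries in each of 9 libraries (left, y axis) and the percent of that sum held by the 7 most abundant of them and by 6 others (predicted A and B are predicted entries) (right, y axis), by library (x axis). The sum is 962.5 to 1773 TPM in acute hypoxia, 275 to 619 TPM in moderate hypoxia and 708 to 785 TPM in control, and miR-2478-z takes its largest share, 61.0% on average, in moderate hypoxia.

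The longer relatives miR-3968-z and miR-9226-x had other patterns across the groups than miR-2478-z and miR-9226-z. miR-3968-z, which contains miR-2478-z, had 4.31, 5.33 and 5.24 TPM in acute hypoxia, 9.35, 9.07 and 6.84 TPM in moderate hypoxia and 2.13, 3.605 and 3.31 TPM in control. It was higher in moderate hypoxia than in control by 1.24 ± 0.24 (log2, SE; limma adjusted p = 0.00546), while miR-2478-z had a change of -0.31. The lowest control library of miR-3968-z holds 22 reads. Its change without moderate hypoxia libraries 1 and 2, the highest of its group, is not given here. Library 3, at 6.84 TPM, lay above all control libraries. Within libraries miR-2478-z was 105, 97.8 and 151 times miR-3968-z in acute hypoxia, 37.3, 20.1 and 40.9 times in moderate hypoxia and 135, 95.3 and 105 times in control. All moderate hypoxia libraries lay below all others in this ratio.

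The pair of miR-9226 also had its lowest ratio under moderate hypoxia. miR-9226-z, which runs past the CCA, had 7.85, 5.685 and 10.4 TPM in acute hypoxia, 2.70, 1.14 and 1.94 TPM in moderate hypoxia and 10.3, 5.85 and 6.06 TPM in control. It fell by 1.52 ± 0.31 in moderate hypoxia against control (log2, SE; adjusted p = 0.00676) and rose by 1.62 ± 0.31 in acute against moderate hypoxia (adjusted p = 0.00402). miR-9226-x, which stops at the CCA, had 25.3, 21.3 and 31.4 TPM in acute hypoxia, 44.8, 17.2 and 30.4 TPM in moderate hypoxia and 31.7, 22.9 and 18.8 TPM in control. Its groups overlapped, with a change of 0.25 ± 0.34 in moderate hypoxia against control (adjusted p = 0.632). The ratio of the short to the longer form was 0.310, 0.267 and 0.330 in acute hypoxia, 0.0602, 0.0664 and 0.0637 in moderate hypoxia and 0.326, 0.255 and 0.322 in control. A ratio within a library does not depend on a single factor that scales the library, though quantile normalization can change it. These ratios were formed after the values were seen, so they have no test. With moderate hypoxia library 3 as the sole library of its group, miR-9226-z had a change of -1.48 (adjusted p = 0.123) against control and 1.58 (adjusted p = 0.0882) in acute against moderate hypoxia.

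**Figure D5:**
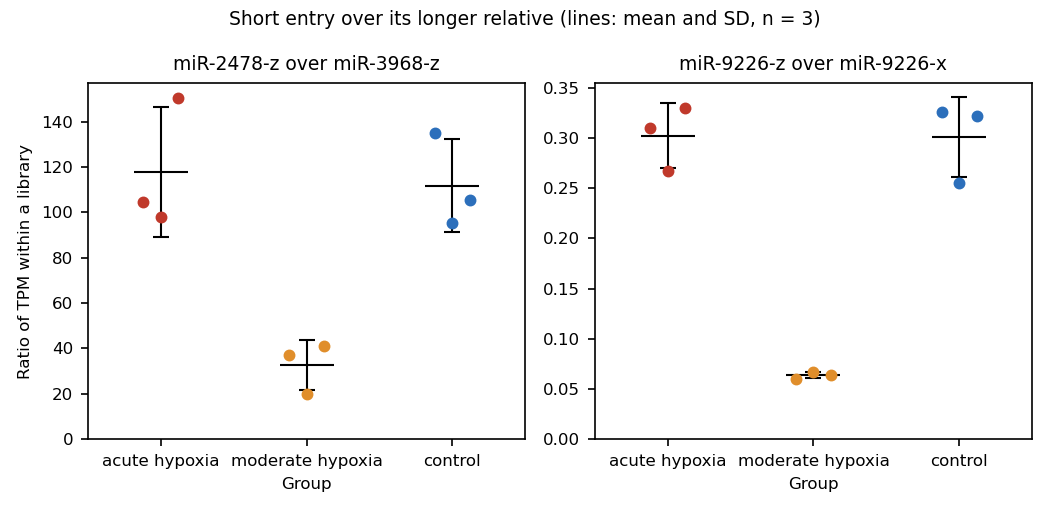
Ratio of the TPM of a short entry to that of its longer relative within a library (y axis), for miR-2478-z over miR-3968-z (left) and miR-9226-z over miR-9226-x (right), by group (x axis), with points for libraries and lines for the mean and SD of 3. All 3 moderate hypoxia points lie below every other point in both panels, at 20.1 to 40.9 on the left and 0.0602 to 0.0664 on the right.

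miR-7550-x, the 19 nt sequence that overlaps miR-2779-z, had 6.33, 6.87 and 12.52 TPM in acute hypoxia, 2.34, 2.62 and 1.76 TPM in moderate hypoxia and 8.12, 6.82 and 5.51 TPM in control. Moderate hypoxia lay below both other groups, which overlapped. It rose by 1.52 ± 0.28 in acute against moderate hypoxia (log2, SE; adjusted p = 0.00359) and fell by 1.27 ± 0.28 in moderate hypoxia against control (adjusted p = 0.0106). With moderate hypoxia library 3 as the sole library of its group, these changes were 1.74 (adjusted p = 0.0555) and -1.49 (adjusted p = 0.123).

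Of the entries without a CCA end, the most abundant showed no call. miR-10014-x, whose first 17 bases are those of miR-122-x, the dominant hepatocyte miRNA, had 561, 325 and 503 TPM in acute hypoxia, 674, 326 and 542 TPM in moderate hypoxia and 493.9, 363 and 599 TPM in control. The 3 groups overlapped throughout. Its log2 changes were -0.13 ± 0.32 in acute against moderate hypoxia, 0.050 ± 0.32 in moderate hypoxia against control and -0.076 ± 0.32 in acute hypoxia against control (SE; adjusted p = 0.786, 0.925 and 0.949). It stood at 1.06 ± 0.25 TPM per 1000 TPM of miR-122-x in acute hypoxia, 0.992 ± 0.32 in moderate hypoxia and 1.20 ± 0.41 in control (SD, n = 3 each). The entries most like it over the 9 libraries were a pair of predicted entries (r = 0.754 and 0.753) and miR-23-x (0.715), none of them a short entry.

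Predicted entry C had 23, 18.9 and 24.9 TPM in acute hypoxia, 6.92, 3.09 and 3.88 TPM in moderate hypoxia and 15, 17.5 and 15.9 TPM in control. Its 3 groups did not overlap. It rose by 2.10 ± 0.27 in acute against moderate hypoxia (log2, SE; adjusted p = 0.000353) and fell by 1.66 ± 0.27 in moderate hypoxia against control (adjusted p = 0.00243), the pattern of the CCA-ended entries without their end. With 36.8% G and C it had the lowest such share of the 20.

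miR-5119-z went the opposite way. It had 1.27, 3.08 and 5.81 TPM in acute hypoxia, 18.3, 10.7 and 15.02 TPM in moderate hypoxia and 0.290, 2.14 and 3.86 TPM in control, where the lowest library holds 3 reads. All moderate hypoxia libraries, library 3 included, lay above all others. It rose by 2.51 ± 0.50 in moderate hypoxia against control (log2, SE; adjusted p = 0.00606) and fell by 1.95 ± 0.50 in acute against moderate hypoxia (adjusted p = 0.0158). Without acute hypoxia library 1 the second change was -1.54 (adjusted p = 0.0531). With moderate hypoxia library 3 as the sole library of its group, the changes were 2.57 (adjusted p = 0.0695) and -2.01 (adjusted p = 0.112).

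miR-5991-z shares its seed with let-7-x, let-7-z and miR-98-x, members of the let-7 family of developmental miRNAs, and differs from the 19 nt miR-98-x by G17A. miR-5991-z had 3.04, 3.32 and 3.87 TPM in acute hypoxia, 2.79, 0.807 and 1.94 TPM in moderate hypoxia and 3.38, 3.12 and 2.98 TPM in control, and moderate hypoxia lay below both other groups. It did not pass in acute against moderate hypoxia (0.69 ± 0.28, adjusted p = 0.0776) or in moderate hypoxia against control (-0.61 ± 0.28, adjusted p = 0.123). miR-98-x averaged 10.7 TPM in acute hypoxia, 15.5 TPM in moderate hypoxia and 8.76 TPM in control, with a change of 0.71 ± 0.29 in moderate hypoxia against control that did not pass (adjusted p = 0.0829). Predicted entry E averaged 1.45 TPM in acute hypoxia, 0.756 TPM in moderate hypoxia and 0.870 TPM in control, on 44, 29 and 25 reads, and passed in no comparison. The lowest means inside the limit of 1 TPM were those of miR-4286-z (1.02 TPM) and predicted entry E (1.03 TPM), and the highest outside it were those of miR-1352-z (0.935 TPM) and miR-10942-z (0.501 TPM).

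The short entries had larger median changes than the lists most like them. Predicted entries of 20 nt or longer (132 distinct sequences) had a median log2 change of 0.31 in acute against moderate hypoxia and -0.15 in moderate hypoxia against control, with 19.7% and 14.4% called in either direction. Known entries numbered 1000 and above of 20 nt or longer (27 sequences) had medians of 0.21 and -0.37, with 37.0% called in both comparisons. The 20 short entries had medians of 1.62 and -1.04, with 16 and 10 of them called. These are counts and medians with no test between the lists, and nothing is called particular to the short entries from them.

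Other values moved between the groups as well, and their part in the changes of the short entries was not tested. Names that mark red blood cells (miR-451, miR-144 and miR-486, 3 of 3 found) summed to 2156 to 3122 TPM in acute hypoxia, 679 to 872 TPM in moderate hypoxia and 2017 to 3512 TPM in control. Leukocyte names (5 of 5 found) summed to 13291 to 18441 TPM in acute hypoxia, 10702 to 10965 TPM in moderate hypoxia and 14977 to 21396 TPM in control. miR-126, an endothelial miRNA, summed to 13401 to 19700 TPM in acute hypoxia, 6719 to 7379 TPM in moderate hypoxia and 11982 to 16161 TPM in control. In these 3 lists moderate hypoxia lay below both other groups, without overlap. Pancreas names (3 of 3 found) went the other way without overlap, with 135 to 170 TPM in acute hypoxia, 174 to 190 TPM in moderate hypoxia and 109 to 141.7 TPM in control. Names of striated muscle (39.4 to 74.6, 51.7 to 55.8 and 51.6 to 77.3 TPM in these groups) and of nervous tissue (3429 to 7245, 5616 to 6992 and 1901 to 7543 TPM) overlapped. Length classes were also formed in the rest of the library, without the short entries and miR-122-x. The 34 short sequences under 1 TPM with a predicted or high-numbered name were left out there too. Entries of 23 nt or longer held 37.1 to 45.7% in acute hypoxia, 30.2 to 33.8% in moderate hypoxia and 33.7 to 41.6% in control. Entries of 20 nt held 0.200 to 0.330%, 0.211 to 0.298% and 0.253 to 0.312% in these groups. Those of 21 nt held 5.73 to 5.98%, 5.83 to 7.47% and 5.13 to 6.16%, and those of 22 nt 48.4 to 56.7%, 60.2 to 62.0% and 52.1 to 60.9%. The 9 other 18 and 19 nt entries counted there held 0.00676 to 0.0327%, 0.00266 to 0.00537% and 0.00264 to 0.0141%. This summed share was higher in the acute hypoxia libraries than in those of moderate hypoxia, while control overlapped both. It includes miR-1582, which was set apart from the short entries by name. miR-1582 had the most extreme log2 changes of all 399 distinct sequences tested, 5.72 in acute against moderate hypoxia and -4.84 in moderate hypoxia against control. The share without miR-1582 is not given here, so its order is not read as a trait of the other entries. A sum can rest on few entries, and how many of these entries share its order was not tested. miR-98-x, a 19 nt entry among them, went the other way, with means of 10.7 TPM in acute and 15.5 TPM in moderate hypoxia.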

How the data were processed

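Small RNA of liver tissue was sequenced in 9 libraries after Trizol extraction, with standard Illumina library protocols, per the labels. The deposited abundances are a signal named TPM per the file headers, in 3 stacked tables, 1 for each pair of groups. They are reads scaled to the total over the listed entries of a library. The 2 tables that hold moderate hypoxia were joined by name. The table of acute hypoxia with control comes from another naming run and served as an alternative. The authors' fold changes are deposited on the log2 scale, with p-values and false discovery rates of a test not named in the file. Aligner, genome build and counting step: not given in the sources used here.

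A value of 0.01 stands for 0. Low values were whole multiples of 1 step per library within 0.1 read (100% of them), which gave the reads. A floor of 3 reads covers no more than counting error. A limma-trend model (R 4.3.3, limma 3.58.1) of log2(TPM + 1) with 1 mean per group was fitted over the 9 libraries to the 481 entries that averaged 1 TPM or more, adjusted by Benjamini and Hochberg within a comparison at 0.05. Fold changes on this scale understate those of low entries. With 3 libraries a group, an exact permutation test could not go below a two-sided p of 0.1, and none was used. Tables and figures were made with Python 3.11.15, pandas 2.3.3 and matplotlib 3.10.9, and the fit was tested on simulated data.

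Named with values are short entries past the threshold in any comparison, the 10 with the highest mean, those that overlap another entry by 14 or more bases, and those nearest the limits. The first entry in the file stands for a repeated sequence. The members and lists were chosen with earlier results of these data known. Of 17 names traced to pieces of other RNA, 2 were found, miR-1260-z and miR-4454-z. Alternatives were other pseudocounts (0.1 and 5), filters, scalings (trims of 30% and 5%), 1 entry per sequence, the replicate number as a block, and leaving out libraries.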

Additional observations from a re-analysis of the deposited data

How the results depend on the processing

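The planned tests on recovered reads were not run, since the deposited columns are stacked over tables and are not counts. Short entries called numbered 16 in acute against moderate hypoxia, 10 in moderate hypoxia against control and 0 in acute hypoxia against control. Without a filter these were 9, 6 and 0 (1413 entries tested), and at a mean of at least 10 TPM 10, 6 and 0 of 11 short entries tested. Without moderate hypoxia libraries 1 and 2 they were 7, 1 and 0. Leaving out 1 library gave 10 to 17, 8 to 11 and 0. Other scalings gave 11 to 14, 7 to 10 and 0. Pseudocounts and 1 entry per sequence gave 16, 9 to 10 and 0, and the table of acute hypoxia with control alone gave 0 of 16. No called change turned its sign under any of these; 9 of 16 and 6 of 10 calls held under each scaling and each left-out library. Same-numbered libraries of different groups showed little common deviation (correlations of -0.206 to 0.264 in 9 pairs, 1 over 0.1). With 3 libraries a group, deviations from a group mean cannot show whether the numbers pair the libraries. The replicate block gave 16, 10 and 0 calls. Reads limit the lowest entries: miR-5119-z, miR-4286-z and predicted entry E have libraries with 2 or 3 reads.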
